A study of Mus musculus with 30 samples.

Results

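The comparison described here set CD4 T cells taken from splenocyte cultures with interleukin-2 (IL-2) and interleukin-12 (IL-12) against CD4 T cells purified directly from fresh spleen. Its members were chosen by array title: 3 arrays titled for the CD4 IL2/IL12 culture (letters D, E and L) and 3 titled CD4 Fresh (letters A, B and C), 6 of the 30 arrays in the series. All cells came from spleens of C57Bl/6 male mice aged 6 to 10 weeks, with no genetic alteration named in the labels. The cultured splenocytes received both cytokines, IL-2 at 4 ng/ml and IL-12 at 5 ng/ml, before the CD4 cells were purified, and the fresh cells were never cultured. The labels name no other stimulus, give no culture time for these arrays and do not say whether animals were pooled. CD4 cells cultured with IL-2 alone or with IL-2 plus IL-4 (10 ng/ml) served as further reference points. So did CD8 T cells, fresh or cultured with IL-2 and IL-12. Each of these groups had 3 arrays, and strain, sex, age range and doses were the same. CD8 cells cultured with IL-2 alone or with IL-2 plus IL-4, and fresh B cells, were used for single genes or marker sums. The spread in the fit came from all 30 arrays. Among these are also B cells that received IL-4 together with an antibody against IgM. Total RNA was measured on a custom mouse array of 752 probe sets aimed at glycan enzymes, lectins, cytokines, chemokines and adhesion molecules.

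IL-12 is released by dendritic cells and macrophages and binds a receptor made of a beta 1 chain (gene Il12rb1) and a beta 2 chain (Il12rb2). The receptor signals mainly through the transcription factor STAT4, which binds DNA at gamma-activated sites, and this signal steers activated CD4 T cells towards the interferon-gamma-producing Th1 type. IL-2 is the main growth factor of activated T cells, and IL-4 steers the same cells towards the Th2 type.

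No transcript that defines CD4 or CD8 T cells was among the named probe sets (0 of 5 and 0 of 2 listed genes), so the label could not be checked against them. Median signal was 147.85 to 204.2 on the fresh arrays and 132.95 to 141.45 on the IL-2/IL-12 arrays. Log2 signals over the 746 non-control probe sets correlated with r = 0.932 to 0.937 among the 3 IL-2/IL-12 arrays, 0.841 to 0.920 among the 3 fresh arrays and 0.724 to 0.828 between the groups. The ratio of the 3' to the 5' control probe set, a measure of RNA and labelling quality, was 0.966 to 0.987 for Actb on the IL-2/IL-12 arrays and 1.08 to 7.62 on the fresh arrays, where array C held the highest value. Fresh array C gave the lowest of the 3 fresh signals for 40 of the 61 probe sets called higher after culture, against 273 of all 746, and the change without it is given where a call was lost without it. Nothing in the labels ties an array to its own mouse or culture, and p-values therefore cover only differences between arrays, which may be technical. The experiment files of fresh arrays A and C carry a note of a repeated run. Fresh arrays A and B and cultured arrays D and E shared a chip lot. Fits on that shared chip lot leave out fresh array C and cultured array L, so 2 arrays remain in each group. Chip lot and number of arrays cannot be told apart in such fits. No scan day was shared between the 2 groups, and no scan period (scan days not set apart by a gap of more than 40 days). Time of scanning and culture therefore cannot be told apart within these 6 arrays. Fits with scan day or scan period as a block link the 2 groups only through arrays of other groups.

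Promoters are printed for 3 genes to which the results return. They are Il12rb2, a chain of the IL-12 receptor, Tnfrsf18, a receptor gene that also rose, and Timp1, which differed between culture with and without IL-12. Among the promoters found for the most changed named genes, only those of Il12rb2 and Tnfrsf18 held a match to the letters searched for here. Binding at these letters was not tested. Each runs from 250 bases before to 50 bases after the RefSeq start (RefSeq, GRCm38.p6), 5′ to 3′ on the gene's strand, with matches to the gamma-activated site TTCNNNGAA (N any base, either strand) in capitals.
Il12rb2, chr6:67376139-67376438, minus strand: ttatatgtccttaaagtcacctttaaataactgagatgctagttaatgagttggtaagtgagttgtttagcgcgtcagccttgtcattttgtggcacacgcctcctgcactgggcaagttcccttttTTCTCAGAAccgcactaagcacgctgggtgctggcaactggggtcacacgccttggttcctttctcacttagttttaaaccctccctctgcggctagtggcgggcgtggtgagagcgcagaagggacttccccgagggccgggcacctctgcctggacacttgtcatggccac
Tnfrsf18, chr4:156026072-156026371, plus strand: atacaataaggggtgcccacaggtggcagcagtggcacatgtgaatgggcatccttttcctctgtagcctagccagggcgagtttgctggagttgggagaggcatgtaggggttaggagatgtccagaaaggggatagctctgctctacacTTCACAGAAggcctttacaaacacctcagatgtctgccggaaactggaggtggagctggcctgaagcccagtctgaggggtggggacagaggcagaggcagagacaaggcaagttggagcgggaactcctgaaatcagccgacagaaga
Timp1, chrX:20869916-20870215, plus strand: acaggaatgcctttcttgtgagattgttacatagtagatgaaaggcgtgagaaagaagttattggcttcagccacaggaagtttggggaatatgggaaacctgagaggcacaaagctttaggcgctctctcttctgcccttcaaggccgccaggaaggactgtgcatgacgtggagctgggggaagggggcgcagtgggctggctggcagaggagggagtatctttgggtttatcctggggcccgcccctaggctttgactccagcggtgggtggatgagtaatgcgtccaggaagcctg
The Il12rb2 stretch held 1 match, beginning at base 128 of 300, and the Tnfrsf18 stretch held 1, beginning at base 152. The Timp1 stretch held none of these letters. Of the promoters found for the named genes that rose (24 of 32 genes, 29 promoters), 3 held a match, or 10.3%. Beside this stood 7.03% of 370 promoters of the array's named genes and 8.30% of all 32851 mouse promoters of this length. Of those found for the named genes that fell (17 of 22 genes, 22 promoters), 2 held a match, or 9.09%. The other motifs searched on both strands were AP-1 (TGANTCA), kappaB (GGGAN followed directly by TTTCC), T-box (AGGTGTGA), the NFAT core GGAAA and TATAAA. AP-1 letters stood in 2 of the 29 promoters of risen genes and 5 of the 22 of fallen genes, beside 37 of the array's 370 and 7.81% of all. The kappaB letters stood in 0 and 1 (2.16% of the array's and 0.411% of all), the T-box letters in 0 and 0 (0.811% and 1.28%), GGAAA in 20 and 12 (60.8% and 61.3%) and TATAAA in 1 and 3 (11.4% and 13.6%). These motifs were chosen after the expression results had been seen, and GGAAA can lie within the kappaB letters on the opposite strand.

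Culture with IL-2 and IL-12 was accompanied by higher transcript signal of the IL-12 receptor chains, the chemokines Ccl3 and Ccl4 and 3 glycolytic enzymes. Signal of 4 TNF-family genes (Tnfrsf4, Tnfsf4, Tnfsf8 and Tnfrsf18) was higher too, and that of Itgax, Vcam1, Fcer2a, Kit and Itgb7 was lower. The Itgb7 call was lost in a fit of the 2 groups alone and with scan day as a block. Cxcr5 and Ccr9 were also lower, but several alternative fits did not keep those calls. The calls of the glycolytic enzymes Gpi1 and Hk1 were lost with the 3'/5' ratio in the fit and in a fit of the 2 groups alone. Across the 746 probe sets, 117 (15.7%) differed at an adjusted p under 0.05 in limma's moderated test, 61 higher (8.18%) and 56 lower (7.51%). The counts within gene lists given below are to be read beside these shares. Fresh and cultured arrays were fully separated for 221 probe sets (29.6%), among them 116 of the 117 called. The median log2 change of all probe sets was -0.10. When each array was centred on its median, that value became 0.20 and the calls split into 81 higher and 38 lower. With the 3'/5' ratio in the fit 34 were higher and 46 lower, and in a fit of the 2 groups alone 27 and 36. Of the called probe sets, 32 higher and 22 lower ones represented a named gene, and 23 higher and 28 lower ones could not be named. The unnamed ones ranged from 0.65 to 3.25 in log2 change when higher and from -4.47 to -0.76 when lower. Where several probe sets measured a gene, the brightest over all arrays represents it, and values below are log2 differences of signal plus 16 unless called a signal.

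**Figure D1:**
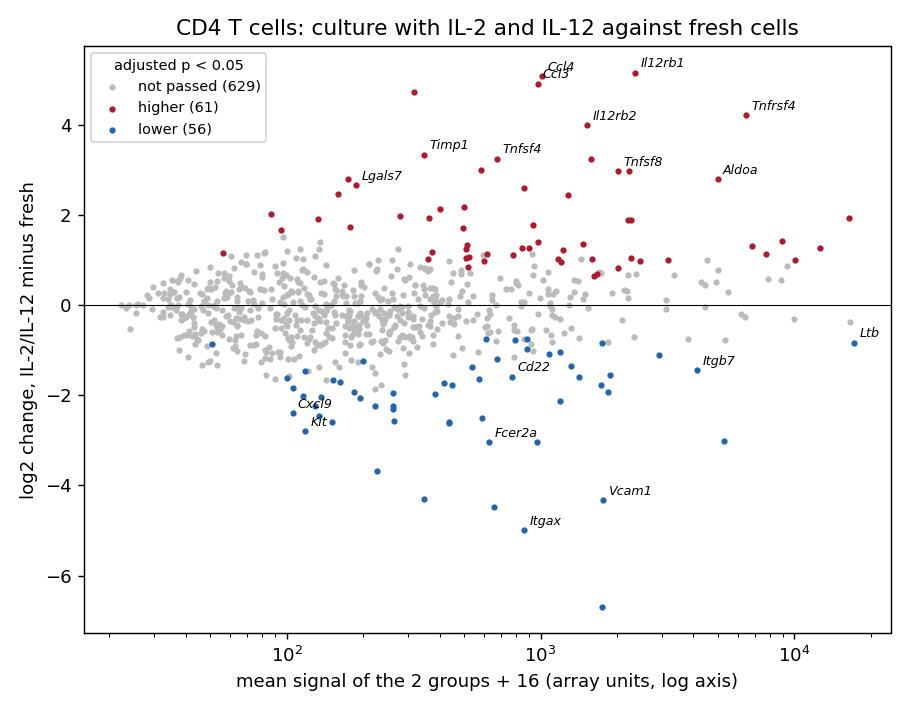
Each point is 1 of 746 probe sets, with the mean signal of the 2 groups plus 16 on a log axis and the log2 change of CD4 T cells cultured with IL-2 and IL-12 against fresh ones. Red marks the 61 called higher and blue the 56 called lower at an adjusted p under 0.05, and the labels name the probe sets that represent some of the genes described; the point near -6.7 is the other Vcam1 probe set.

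Both chains of the IL-12 receptor rose. Il12rb1 read 215.1, 99.2 and 61.3 on fresh arrays A, B and C and 4931.6, 4609.7 and 4117.7 on IL-2/IL-12 arrays D, E and L. The groups were far apart, with the lowest cultured array at 4117.7 against a fresh maximum of 215.1, and the log2 change was 5.16 (SE 0.51, adjusted p = 4.46e-08, limma, n = 3 against 3). A separate Il12rb1 probe set rose by 3.01 (adjusted p = 1.64e-05, limma). Il12rb2 read 211, 80.1 and 222.9 on the fresh arrays and 3176.2, 3478.1 and 1868.8 on the cultured ones. Cultured array L was the lowest of its group and still above every fresh array, and the log2 change was 3.99 (SE 0.37, adjusted p = 2.75e-08, limma). Among the 7 measured genes of the list of IL-12 receptor chains and Th1 genes, these 2 rose, none fell and 5 did not pass the test (median 0.62). Lta, the Th1 cytokine lymphotoxin alpha, changed by 1.13 without passing (adjusted p = 0.0764, limma). Cxcr3, a chemokine receptor of Th1 cells, had a value of -0.87 (adjusted p = 0.40, limma), with fresh array C at 508.6 and fresh A and B at 1463.5 and 1653.7.

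Il4 and Il10, cytokines of Th2 and regulatory T cells, rose as well. Il4, the defining Th2 cytokine, read 17.1, 26.6 and 46 on the fresh arrays and 82.5, 162.1 and 141.4 on the IL-2/IL-12 arrays. The groups did not overlap, and the log2 change was 1.66 (SE 0.44, adjusted p = 0.00839, limma). Its dimmer probe set gave 0.35 (adjusted p = 0.708, limma), and leaving out cultured array E left the brighter one at 1.49 (adjusted p = 0.0510, limma). Il10, a cytokine that restrains inflammation, read 352.4, 391.5 and 724.6 fresh and 1134.5, 1431.9 and 925.6 cultured, a rise of 1.27 (adjusted p = 0.0149, limma), a call lost without fresh array A or B or without cultured array E. Of 16 measured interleukin and interferon genes these 2 rose and 14 did not pass, with a median of 0.08. Of 6 Th2 genes, Il4 alone passed; Il13 gave 0.44 (adjusted p = 0.790, limma), with cultured arrays from 28.5 to 296.5.

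The inflammatory chemokines Ccl3 and Ccl4, which attract monocytes and T cells, rose from near the low end of the scale. Ccl4 read 40.2, 59.9 and 29.4 on the fresh arrays and 1859.4, 1901.5 and 2081.8 on the cultured ones, a log2 change of 5.08 (SE 0.40, adjusted p = 1.43e-09, limma). The cultured arrays were close together and all lay above every fresh array. Ccl3 read 47.4, 30.7 and 55.6 fresh and 1173.1, 2563.7 and 1871.2 after culture, a log2 change of 4.91 (SE 0.54, adjusted p = 2.77e-07, limma). Of 27 measured CC and CXC chemokines, 2 rose, 2 fell and 23 did not pass (median -0.28), beside 15.7% of all 746 probe sets called in either direction. Those that fell were Cxcl9, an interferon-induced ligand of CXCR3 (-2.40, SE 0.42, adjusted p = 0.000129, limma), and the platelet chemokine Pf4 (-2.24, adjusted p = 0.00688, limma). The dimmer Pf4 probe set gave -0.75 (adjusted p = 0.404, limma). The Pf4 call was lost with the 3'/5' ratio in the fit (-1.45), with scan period or scan day as a block and on the shared chip lot (-1.87). Ccl5, a further inflammatory chemokine, gave 0.70 (adjusted p = 0.426, limma), its fresh arrays spreading from 647.9 to 3239.4. Of 13 chemokine receptors none rose and 2 fell (median -0.73), beside the same 15.7% of all probe sets. The 2 that fell were Cxcr5, the receptor that guides cells into B cell follicles, by 2.02, and Ccr9, the receptor of gut-homing lymphocytes, by 1.25. The Cxcr5 call was lost without fresh array C (-1.64, adjusted p = 0.0693, limma) or cultured array L, and that of Ccr9 without any of the 3 cultured arrays, fresh array A or fresh array C (-0.98 without C). Ccr7, which directs T cells to lymph nodes, gave 0.79 (adjusted p = 0.237, limma), all cultured arrays lying above all fresh ones.

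Of 20 measured genes of the TNF family, 4 rose and 1 fell. Tnfrsf4, which encodes the receptor OX40 of activated T cells, read 1172.5, 972.4 and 206.1 on the fresh arrays and 15110.1, 11367.8 and 9734 on the cultured ones. Fresh array C was the lowest, all cultured arrays exceeded all fresh arrays, and the log2 change was 4.22 (SE 0.51, adjusted p = 1.39e-06, limma). Its ligand OX40L, encoded by Tnfsf4, rose by 3.26 (SE 0.43, adjusted p = 5.39e-06, limma), from 61, 208.6 and 93.8 to 1549.2, 1058.2 and 969.8. Tnfsf8, which encodes the CD30 ligand, read 414.8, 503.8 and 403.4 fresh and 3697.4, 3014 and 3991.6 cultured, a rise of 2.97 (SE 0.32, adjusted p = 1.69e-07, limma). Tnfrsf18, which encodes GITR, rose by 2.59 (SE 0.44, adjusted p = 9.42e-05, limma), from 340.4, 382.6 and 79.6 to 1512.4, 1285.3 and 1479. Of 9 measured TNF-family receptors, 2 rose and none fell (median 0.49), and of 11 ligands, 2 rose and 1 fell (median -0.10). Tnfrsf9, Tnfrsf8, Cd40lg and Cd70, further costimulatory members, gave 0.49, 0.77, -0.59 and -0.27 and did not pass. The ligand that fell was Ltb, lymphotoxin beta, which supports lymphoid tissue structure, by 0.83 (adjusted p = 0.0245, limma), a call lost without cultured array D, cultured array E or fresh array C (-0.74 without C). Fasl, the death ligand of cytotoxic lymphocytes, gave 0.45 (adjusted p = 0.375, limma) and Fas, its receptor, 0.68 (adjusted p = 0.104, limma).

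**Figure D2:**
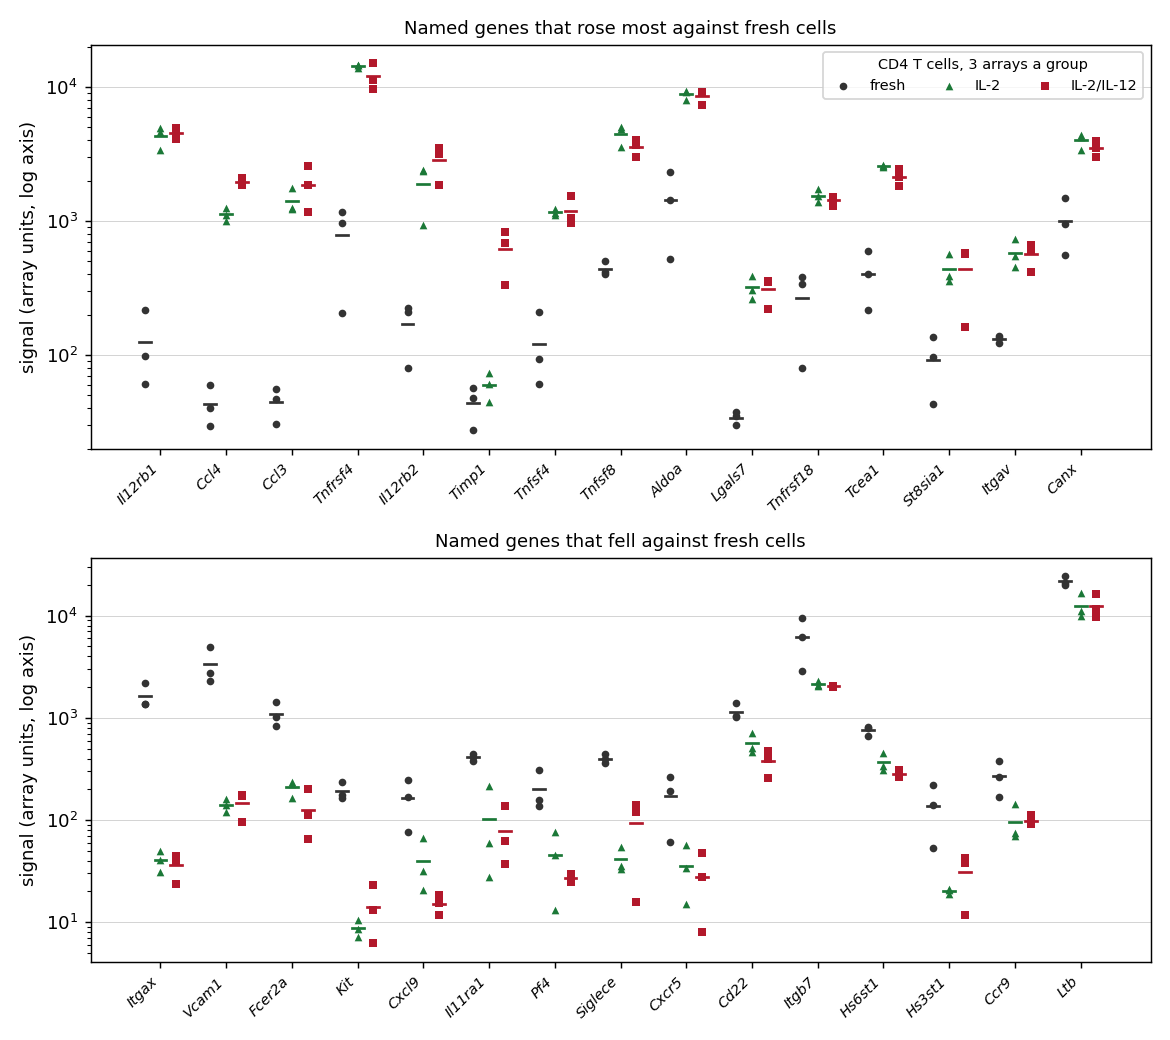
Signal on each array (log axis) of CD4 T cells, 3 arrays a group, with bars at the means: fresh (black circles), IL-2 (green triangles) and IL-2/IL-12 (red squares). The upper panel shows the 15 named genes with the highest log2 changes under the naming rule and the lower panel 15 that fell, selected from those described; for Timp1 the IL-2 arrays, at 44.6 to 73.4, sit with the fresh arrays and not with the IL-2/IL-12 arrays at 333.7 to 834.

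Aldoa and 2 further glycolytic enzymes, Tcea1, Vegfa and Lgals7 were also higher. Aldoa, the glycolytic aldolase, read 1434, 2333.9 and 518.8 on the fresh arrays and 9123.3, 9022 and 7388.4 on the cultured ones. The groups did not overlap and the log2 change was 2.80 (SE 0.35, adjusted p = 1.67e-06, limma). Gpi1, glucose-6-phosphate isomerase, rose by 1.32 and Hk1, a hexokinase, by 1.22, so that 3 of 5 measured genes of glycolysis and nucleotide sugar synthesis rose and none fell (median 1.22). Once the 3'/5' ratio entered the fit, Gpi1 fell short at 0.59 (adjusted p = 0.189, limma) and Hk1 at 0.44 (adjusted p = 0.358, limma), and Aldoa kept its call at 1.80. A fit of the 2 groups alone also lost the calls of Gpi1 (adjusted p = 0.102, limma) and Hk1 (adjusted p = 0.143, limma). Tcea1, a transcription elongation factor, rose by 2.45 (SE 0.34, adjusted p = 7.94e-06, limma). Vegfa, the vessel growth factor, rose by 2.03 (SE 0.46, adjusted p = 0.00231, limma), from 11.5, 17.2 and 12.9 to 148.2, 197.7 and 35.1, and was 1 of 10 measured vessel growth factors to pass. The Vegfa call was lost in a fit of the 2 groups alone (adjusted p = 0.0524, limma). Lgals7, the galectin-7 gene, rose from 35, 37.7 and 29.9 to 351.6, 359.5 and 218.9, or by 2.67 (SE 0.41, adjusted p = 2.52e-05, limma).

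Among genes that build, carry or modify glycans, St8sia1, Canx and Slc35a1 were higher and the heparan sulfate enzymes Hs6st1 and Hs3st1 lower. Several alternative fits did not keep the calls of St8sia1, Slc35a1 and Hs3st1. Of 4 measured sialyltransferases 2 rose: St8sia1, which builds the ganglioside GD3, by 1.97 (SE 0.49, adjusted p = 0.00543, limma), and St6galnac4 by 1.04 (adjusted p = 0.0224, limma), a call lost without cultured array D, cultured array E or fresh array C (0.60 without C). St8sia1 read 136.4, 96.6 and 43.3 fresh and 571.5, 161.3 and 576.7 cultured, with array E close to the fresh arrays. Its call was lost on the chip lot both groups share, with 2 arrays a group (1.30, adjusted p = 0.183, limma). The St8sia1 call was also lost in a fit of the 2 groups alone, with the 3'/5' ratio in the fit (1.56) and with scan period or scan day as a block. That of St6galnac4 was also lost in a fit of the 2 groups alone, with the 3'/5' ratio in the fit (0.37), with scan day as a block and on the shared chip lot. St3gal6 gave -1.06 and missed the threshold (adjusted p = 0.0530, limma), though its arrays did not overlap. Slc35a1, the transporter that brings CMP-sialic acid into the Golgi, rose by 1.05 (adjusted p = 0.00321, limma) on its brighter probe set and gave -0.16 on the dimmer one. The Slc35a1 call was lost in a fit of the 2 groups alone and with the 3'/5' ratio in the fit. It was also lost with scan day as a block and with 1 value per gene (0.45). Cmah, which makes the glycolyl form of sialic acid, gave -0.80 (adjusted p = 0.362, limma). In the assembly of N-glycans, Canx, the folding chaperone calnexin, rose by 1.90 (SE 0.33, adjusted p = 0.000107, limma), from 1480.6, 949.2 and 554.5 to 3536.7, 3975.4 and 3001.1. Dpm2, a subunit of dolichol-phosphate mannose synthase, rose by 1.11, so that 2 of 5 measured genes of that list rose (median 0.56). The Dpm2 call was lost in a fit of these groups alone, with the 3'/5' ratio in the fit (0.70) and with scan period or scan day as a block. Among 13 enzymes of heparan and chondroitin sulfate chains none rose and 2 fell, beside 15.7% of all 746 probe sets called in either direction. The 2 that fell were Hs6st1, a heparan sulfate 6-O-sulfotransferase, by 1.37 (SE 0.24, adjusted p = 0.000120, limma), and Hs3st1, a 3-O-sulfotransferase, by 1.62 (SE 0.47, adjusted p = 0.0178, limma). The Hs3st1 call was lost without fresh array A, fresh array C (-1.22) or cultured array L. It was also lost with median centring, in a fit of the 2 groups alone and with the 3'/5' ratio in the fit (-0.81). Neither scan period nor scan day as a block (-0.28 with day) kept the Hs3st1 call, nor did the shared chip lot. The Hs6st1 call was lost with scan day as a block (adjusted p = 0.103, limma). No measured member passed among 5 fucosyltransferase genes, 7 galactosyltransferase and poly-LacNAc genes, 4 other sulfotransferase genes, 4 genes of selectins and their ligands or 3 proteoglycan cores. C1galt1, which starts the core 1 O-glycan, gave 0.58 (adjusted p = 0.210, limma), Gcnt1, which branches it, 0.10 and Selplg, the P-selectin ligand that carries it, -0.30, none past the threshold. Of the other lists, 1 of 6 glycolipid genes and 1 of 5 genes of sialic acid supply rose, both named above. The 1 measured N-glycan trimming gene and the 2 O-glycan genes did not pass. Of 4 Siglecs 2 fell, of 4 C-type lectins and NK receptors 1 fell, and of 5 adhesion genes of the immunoglobulin family 1 rose and 1 fell.

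**Figure D3:**
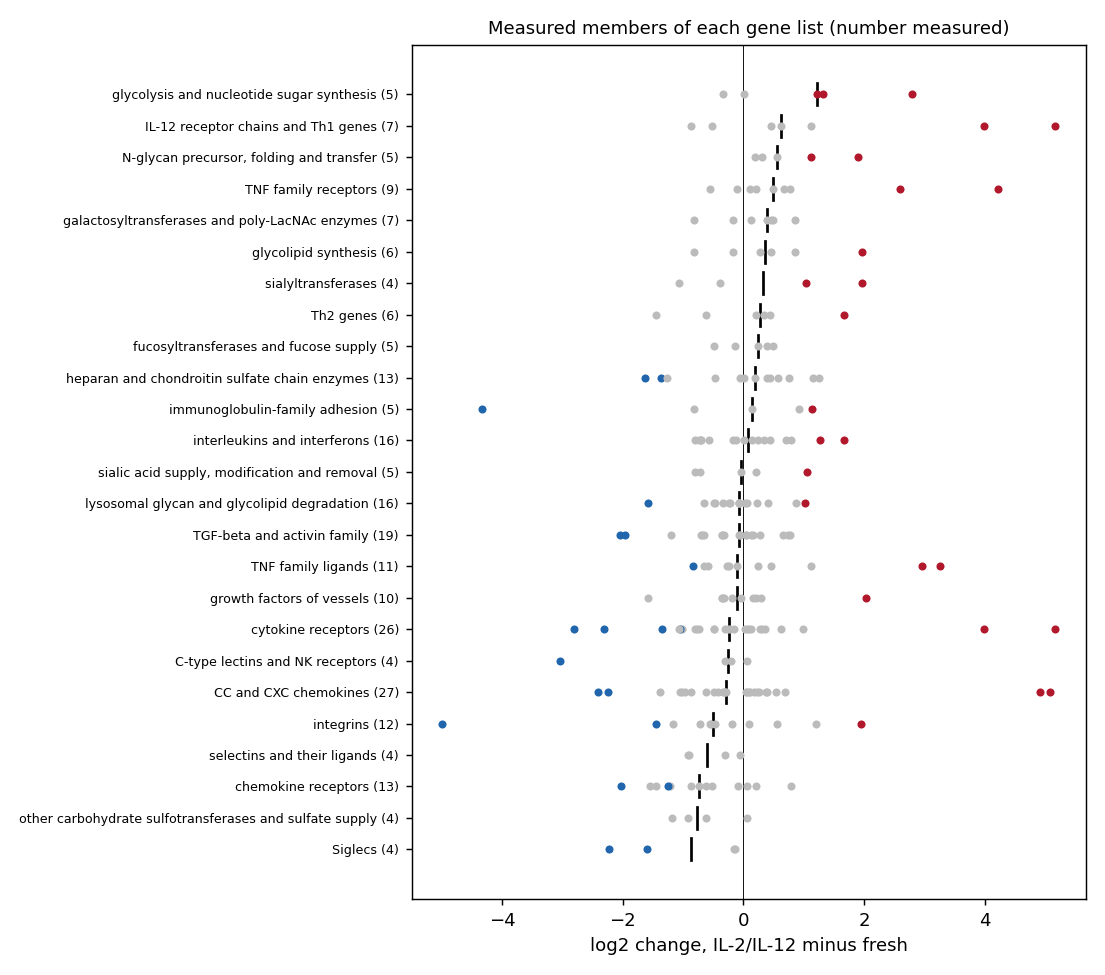
Log2 change of each measured gene (points) in the gene lists (marker lists aside) with at least 4 measured members, with the list's median as a black bar and the number measured in brackets. Red and blue points passed the test as higher or lower and grey points did not; the highest median, 1.22, is that of glycolysis and nucleotide sugar synthesis and the lowest, -0.87, that of the Siglecs.

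The falls were led by genes known from other leukocytes and from endothelium. Itgax, which encodes the dendritic cell integrin CD11c, read 1380.8, 2217.1 and 1355.6 on the fresh arrays and 40, 44.4 and 23.4 on the cultured ones, a fall of 4.99 (SE 0.61, adjusted p = 1.50e-06, limma). Vcam1, an adhesion molecule of endothelium and macrophages, read 2280.3, 4987.6 and 2765.9 fresh and 171.4, 95.7 and 174 cultured, a fall of 4.32 (SE 0.43, adjusted p = 6.24e-08, limma). Neither gene's groups came near each other, and the second Vcam1 probe set fell by 6.69. Fcer2a, the low-affinity IgE receptor CD23 of B cells, fell by 3.04 (SE 0.42, adjusted p = 7.62e-06, limma), from 1432.2, 827.9 and 1028.5 to 112.9, 65 and 201.8. Cd22, an inhibitory B cell Siglec, fell by 1.59 (adjusted p = 0.000822, limma), and Siglece, a myeloid Siglec, by 2.23 (adjusted p = 0.0113, limma). The Siglece call was lost without cultured array D, in a fit of the 2 groups alone and with the 3'/5' ratio in the fit. It was also lost with scan period (-1.28) or scan day (-1.08) as a block. Of 22 named genes that fell, 7 were on a marker list of another cell type, against 0 of 32 that rose and 13 of all 375 named genes. The lists were chosen with earlier results of these data known, so these counts cannot show where the falls came from.

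The summed signal of the measured markers of B cells, myeloid cells, endothelium and platelets was higher on the fresh CD4 arrays, and that of the NK marker overlapped. The 3 measured B cell markers (Cd22, Fcer2a, Cxcr5), all of which fell, summed to 1896.8 to 2678.7 on the fresh CD4 arrays, 469.5 to 570 on the IL-2/IL-12 arrays and 20123.6 to 24975.7 on the fresh B cell arrays. The 4 myeloid markers, of which Itgax and Siglece fell and Siglec1 and Cd33 gave -0.14 and -0.16, summed to 1822.8 to 2777.4 fresh and 158.2 to 341.1 cultured, and the 3 endothelial markers to 2477 to 5404.3 and 356.1 to 668.6. Vcam1 carried most of the fresh endothelial sum and fell, while Sele and Madcam1 gave -0.89 and 0.92 and did not pass. The 2 platelet markers, of which Pf4 fell and Itga2b gave -0.18 without passing, summed to 153.4 to 358.1 fresh and 44.4 to 68.3 cultured. The single measured NK marker, Klrd1, overlapped at 827.2 to 1267.4 and 711.6 to 1805.6. No marker was at 0 on any of these arrays. The part of other cells in the falls was not tested, and in such bulk samples fewer cells of a type and less RNA per cell cannot be told apart.

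Several falls lay outside those marker lists. Kit, the stem cell factor receptor, read 233.6, 174.2 and 164 on the fresh arrays and 13.2, 22.9 and 6.2 on the cultured ones, a fall of 2.80 (SE 0.41, adjusted p = 1.56e-05, limma). Lipa, the lysosomal acid lipase, read 2118.9, 2088.6 and 2124.5 fresh and 606.1, 785.4 and 702.5 cultured, a fall of 1.58 (SE 0.24, adjusted p = 2.19e-05, limma). Both groups were tight and far apart. Of 19 measured genes of the TGF-beta and activin family none rose and 2 fell (median -0.08). Bmp7, a bone morphogenetic protein, read 203.7, 252.1 and 148.4 fresh and 65.3, 35.5 and 16.7 cultured, a fall of 2.05 (SE 0.51, adjusted p = 0.00550, limma). Acvrl1, a receptor of that family known from endothelium, read 466.9, 389.2 and 305.8 fresh and 27.9, 158.9 and 124.1 cultured, a fall of 1.96 (SE 0.39, adjusted p = 0.000740, limma). Neither gene's groups overlapped; the Acvrl1 call was lost when the 2 groups were fitted alone (adjusted p = 0.0609, limma) and the Bmp7 call with scan day as a block (adjusted p = 0.334, limma). Il11ra1, the IL-11 receptor chain, fell by 2.31 (adjusted p = 0.0124, limma), so that among 26 measured cytokine receptors 2 rose and 4 fell, with a median of -0.24. The Il11ra1 call was lost without cultured array E, with the 3'/5' ratio in the fit, with scan day as a block and on the shared chip lot. Il7r, the receptor for the survival cytokine IL-7, gave -0.77 (adjusted p = 0.188, limma), from 7727.6, 7108.5 and 5289.9 to 4424.8, 4422.1 and 2957.7, without overlap. Among 12 integrins 1 rose and 2 fell. Itgb7, the chain of the gut-homing integrin, read 9583.5, 6183.4 and 2847.5 fresh and 2009.1, 2044.6 and 2030.8 cultured, a fall of 1.44 (SE 0.31, adjusted p = 0.00160, limma). Its cultured arrays were nearly equal while the fresh ones ranged widely. The Itgb7 call was lost in a fit of the 2 groups alone (adjusted p = 0.102, limma) and with scan day as a block (adjusted p = 0.178, limma). Itgav, the alpha V integrin chain, rose by 1.95 (SE 0.42, adjusted p = 0.00151, limma) on its brighter probe set and gave -0.26 on the dimmer one. Cd2, a T cell adhesion molecule, rose by 1.14 (adjusted p = 0.0269, limma), a call lost without cultured array D or L or fresh array C, which read 1939.5 beside 6878.2 and 7010.6 (0.53 without C, and 0.11 with the 3'/5' ratio in the fit).

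Against CD4 cells cultured with IL-2 alone, which shared scan days and letters with the IL-2/IL-12 arrays, the labelled difference is the addition of IL-12. A single probe set of 746 (0.134%) passed the test, that of Timp1, and 28 had an unadjusted p under 0.05. Timp1, which encodes an inhibitor of matrix metalloproteinases, read 73.4, 44.6 and 60.3 with IL-2 and 834, 688.3 and 333.7 with IL-2 and IL-12. The arrays did not overlap, and the log2 difference was 2.99 (SE 0.55, 95% interval 1.85 to 4.14, adjusted p = 0.0111, limma). With IL-2 and IL-4 it read 160, 130.1 and 67.9, and fresh cells gave 47.9, 56.4 and 27.4. CD8 cells cultured with IL-2 and IL-12 read 1169.6, 581.9 and 945.5, beside 337.8, 161.2 and 205.4 with IL-2 alone and 22.2, 30.8 and 56.8 fresh. The CD4 difference lost its call in the fit with the letter as replicate block (adjusted p = 0.418, limma) and without cultured array D (adjusted p = 0.154, limma). The call was also lost on the shared chip lot, which left 2 arrays in each of the 2 cultures (3.39, adjusted p = 0.385, limma). Over all 19 alternatives the log2 difference lay between 2.39 and 3.39.

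No other gene passed between the 2 cultures, whether or not it had passed against fresh cells. Il12rb1 read 4653.1, 4908 and 3407.7 with IL-2 alone, a difference of 0.09 with an interval from -0.96 to 1.13. Il12rb2 read 2384.3, 2379 and 926.9 with IL-2, a difference of 0.65 (interval -0.12 to 1.42), array L being the lowest in both cultures. Ccl4 was above the IL-2 arrays on every IL-2/IL-12 array, at 996.2, 1250.4 and 1116.3 with IL-2, and its difference of 0.79 (interval -0.04 to 1.62) did not pass. Il7r gave 0.93 (interval 0.18 to 1.68, adjusted p = 0.935, limma), from 2599.9, 2338.7 and 1365.8 with IL-2. Il13 gave -1.60 (interval -3.25 to 0.04) and Il4 -0.66 (interval -1.57 to 0.25). Among the 61 probe sets called higher against fresh cells, the 95% interval of the difference between the cultures lay within 1 log2 unit of 0 for 39, and among the 56 called lower for 21. Against the same fresh arrays, the culture with IL-2 alone gave 59 higher and 69 lower calls.

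**Figure D4:**
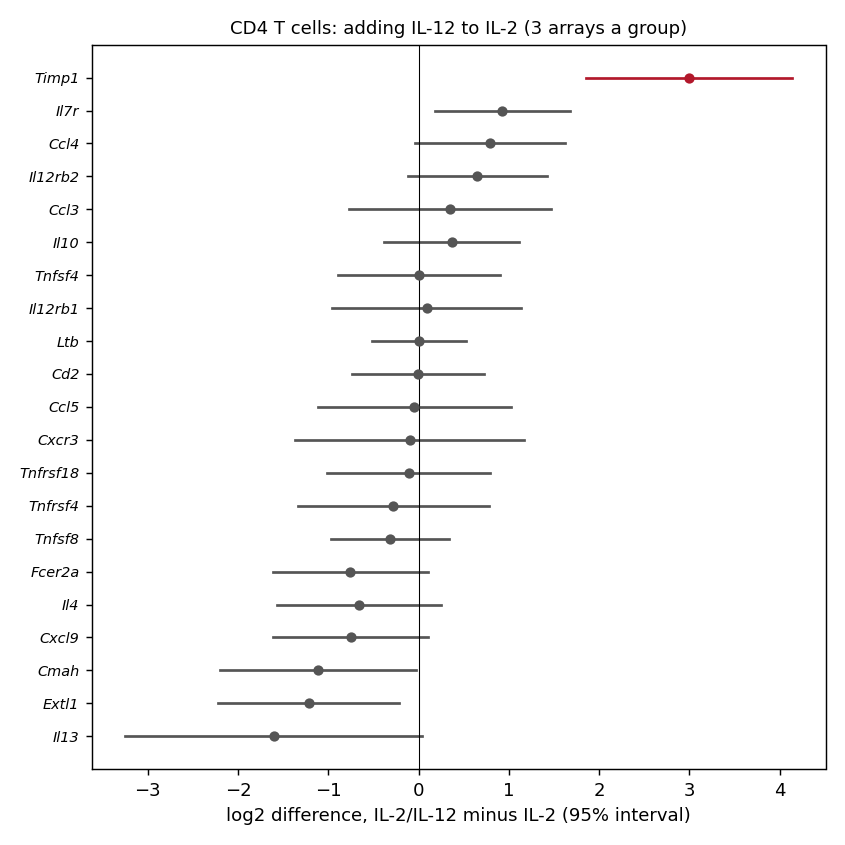
Log2 difference between CD4 T cells cultured with IL-2 and IL-12 and those cultured with IL-2 alone (points) with 95% intervals from the fit (lines), 3 arrays a group, for 21 of the genes described. Timp1, in red, is the gene past the adjusted threshold, at 2.99.

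Against the culture with IL-2 and IL-4, 10 probe sets (1.34%) passed, 6 higher and 4 lower in the IL-12 culture. Il4 read 2009.9, 2091.2 and 1384.9 with IL-4 and 82.5, 162.1 and 141.4 with IL-12, a difference of -3.69 (SE 0.44, adjusted p = 3.04e-06, limma). Ccr4, a chemokine receptor of Th2 cells, read 311.4, 409.8 and 448.9 with IL-4 and 15.4, 28.4 and 17.7 with IL-12, a difference of -3.48 (SE 0.41, adjusted p = 3.04e-06, limma). Both genes were an order of magnitude apart with no overlap. Cd83, an activation marker, was lower by 1.28 (adjusted p = 0.0173, limma) and Klrd1, which encodes CD94 of NK and cytotoxic cells, was higher by 1.74 (adjusted p = 0.0390, limma). Klrd1 read 287.4 to 314.4 with IL-4, below every CD4 array with IL-12 (711.6 to 1805.6), with IL-2 alone (525 to 841.9) or fresh (827.2 to 1267.4). Cd83 averaged 1369.9 with IL-4, beside 540.3 with IL-12, 616.4 with IL-2 alone and 784 fresh. Its IL-4 array C, at 741.6, lay near IL-12 array E at 719.8. For both genes the IL-4 group mean stood apart from those of the other CD4 groups. Timp1 was higher by 2.20 (adjusted p = 0.0424, limma). The Klrd1 and Timp1 calls were lost without any 1 of the 3 IL-4 arrays and the Cd83 call without IL-4 array A or B, and each without either of 2 of the IL-12 arrays (D and L for Cd83, E and L for Klrd1, D and E for Timp1). With scan day as a block Cd83 gave -0.50 (adjusted p = 0.997, limma). These groups shared 1 scan day.

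The response to IL-2 and IL-12 in CD4 cells was set against that in CD8 cells by the interaction in the same fit, and 6 of 746 probe sets (0.804%) differed. Lgals7 rose by 2.67 in CD4 cells and gave -0.55 in CD8 cells, whose cultured arrays read 53, 41.7 and 47.8, a difference of responses of 3.22 (SE 0.58, adjusted p = 0.00346, limma). Tnfsf8 gave 2.97 in CD4 and 0.89 in CD8 cells, a difference of 2.08 (SE 0.45, adjusted p = 0.0137, limma). That call was lost without CD4 IL-2/IL-12 array L (adjusted p = 0.0603, limma), CD8 IL-2/IL-12 array H (0.0752) or fresh CD8 array C (0.0537), in a fit of these groups alone, with scan period as a block and on the shared chip lot. Itgae, which encodes the integrin CD103 carried by many fresh CD8 cells, read 3165.4, 2997.2 and 1980.8 on fresh CD8 arrays and 239.2, 270.6 and 197.4 after culture, while CD4 cells gave -0.53, a difference of 2.89 (SE 0.42, adjusted p = 0.000324, limma). Extl1, an exostosin-like enzyme of heparan sulfate synthesis, gave -1.27 in CD4 and 2.16 in CD8 cells, a difference of -3.43 (SE 0.69, adjusted p = 0.00807, limma). The experiment file of 1 CD8 IL-2/IL-12 array names another array; without it and the array named in its place 5 probe sets differed, 4 of them higher in CD4. The Extl1 call was lost with scan period as a block and on the shared chip lot, and with scan day as a block none of the 6 passed.

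**Figure D5:**
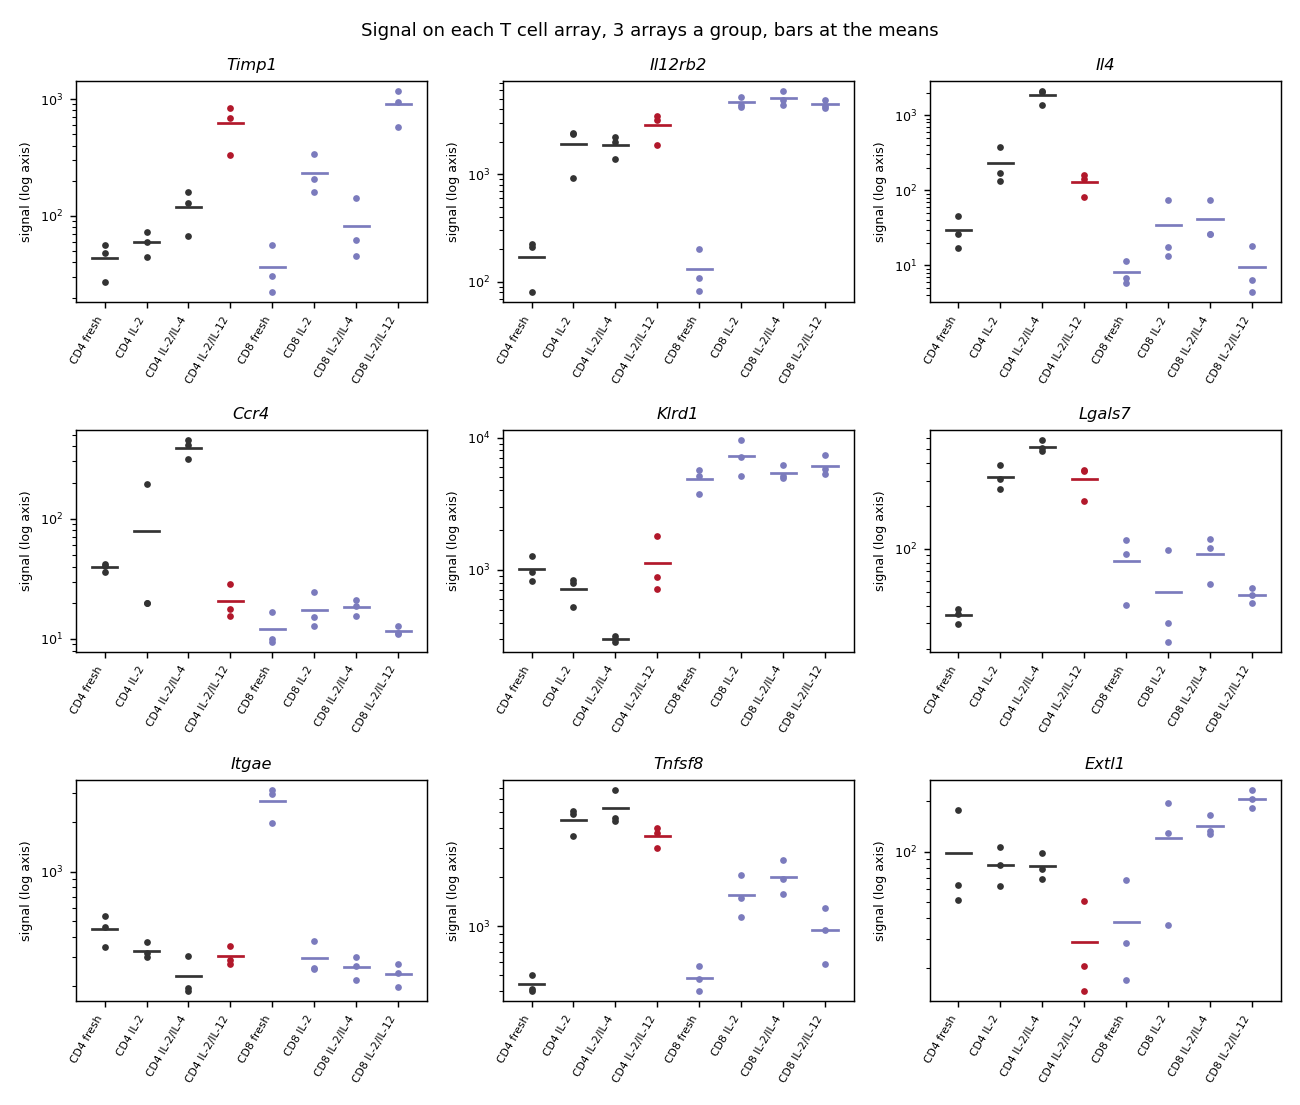
Signal on each array (log axis) for 9 genes in 8 groups of T cells, 3 arrays a group, with bars at the means and the CD4 IL-2/IL-12 group in red. Timp1 is high in both IL-2/IL-12 groups, Il4 and Ccr4 peak in CD4 cells with IL-2 and IL-4, and Lgals7 is raised in cultured CD4 cells and not in cultured CD8 cells.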

How the data were processed

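The series holds 30 arrays in 10 groups of 3, grouped by title. The deposited table gives linear intensity per probe set (752, of which 6 Actb and Gapdh controls were left out); the program that summarised and scaled it is not given in the sources used here, and the authors' experiment files gave chip lot, scan day and run notes. Of the 746 tested probe sets, 450 were named through RefSeq accessions or a synonym (375 genes) and 296 were not. Log2(intensity + 16) was fitted with limma 3.58.1 in R 4.3.3 as 10 group means over all 30 arrays (20 residual degrees of freedom), two-sided, with Benjamini-Hochberg adjustment over 746 and a threshold of 0.05. The fit was also run on simulated data with independent noise. That simulation held no effect of scan day, chip lot or RNA quality and does not bear on them. Depth is set by the number of arrays. Genes were named by rule: the highest and lowest log2 changes among named genes that passed, did not overlap and were above the median signal, the leading members of each gene list, and a fixed set. Not every list member so taken is described, and some genes the rule takes are not reported here. Alternatives covered the pseudocount, scaling, dim probe sets, groups fitted, 3'/5' ratio, scan day and period, left-out arrays and 1 value per gene; the shared chip lot, the 2 exchanged array names, the promoter motifs and the gap that separates scan periods were chosen after seeing the data. The letters D, E and L are shared by the IL-2 and IL-2/IL-12 arrays, but only the L pair's deviations correlated above 0.1 (0.050, 0.046 and 0.185), so the arrays were not treated as paired. Members and lists were chosen with earlier results of these data known.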

Additional observations from a re-analysis of the deposited data

Results flagged for a closer look

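The response to culture with IL-2 and IL-12 differed between CD4 and CD8 cells for 6 probe sets by the interaction test in limma, 4 of which represent a named gene. The log2 response in CD4 minus that in CD8 was 3.22 for Lgals7, 2.89 for Itgae, 2.08 for Tnfsf8 and -3.43 for Extl1. Itgae had the higher fresh level in CD8 cells, at 2714 ± 641 (SD, n = 3) against 448.3 ± 96.1 (SD, n = 3) in CD4 cells, and similar levels after culture, at 235.7 ± 36.7 and 303.1 ± 43.0. Extl1 read 182.4 to 235.3 on cultured CD8 arrays and 14.7 to 50.4 on cultured CD4 arrays.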

How the results depend on the processing

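Against fresh cells the number of probe sets called stayed within 1.5 times of 117 under every alternative except a fit of the 2 groups alone (63) and scan day as a fixed block (59), and ranged from 91 to 121 with 1 array left out. Under scan day as a block, 54 of the 117 kept their call and 2 changed sign; as the groups share no day, that fit links them through other groups. Median centring split the calls 81 higher to 38 lower (68.1% higher, beside 52.1%), and the 3'/5' ratio as covariate split them 34 to 46 (42.5% higher). Of the genes described, Il12rb1, Il12rb2, Ccl3, Ccl4, Tnfrsf4, Tnfsf8, Aldoa, Lgals7, Timp1, Itgax, Vcam1, Fcer2a, Kit, Lipa and Cxcl9 kept their call against fresh cells under all alternatives that gave them a value, and no named gene that passed in either fit changed sign; sign changes where neither passed were not counted.

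The IL-12 against IL-2 count of 1 became 0 with a pseudocount of 1, with the 2 groups alone, on the shared chip lot and in the fit with the letter as replicate block, and 2 with a pseudocount of 64, without the dimmest 40%, with scan day as a random block and with 1 value per gene; left-out arrays gave 0 to 3. Where limma called 0, 25 to 54 probe sets had an unadjusted p under 0.05. Without 1 array, Timp1 lost its call in 4 of 6 cases (arrays D and E with IL-12, E and L with IL-2). Against IL-2/IL-4 the 10 calls became 6 with the 2 groups alone and 4 with scan day as a block, and 4 to 6 with 1 array left out. The 6 calls between CD4 and CD8 became 12 with a pseudocount of 64, 3 with scan period and 0 (limma, 59 with an unadjusted p under 0.05) with scan day as a block, and 4 to 10 with 1 array left out, 10 without fresh CD4 array A. The cause of these shifts was not tested. The number of arrays, 3 a group, limits what could be called.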
